A study of Mus musculus with 27 samples.

Results

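Gata4, Gata6, Sox17, Sox7, Foxa1, Foxa2, Hhex and Cxcr4 are 8 of the 23604 genes measured by bulk RNA-seq in 19 libraries of mouse pluripotent cells. They were picked by symbol as endoderm genes, for their levels in Epiblastoids and in lines of formative pluripotent stem cells (fPSCs), so those levels are described without a test. The same symbols were looked up in single fPSCs, and their promoters in histone mark and DNA methylation tracks of fPSCs at passage 10 (P10).

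The study followed mouse embryonic stem cells (mESCs), wild-type apart from reporters in some lines. They were moved from the naive state towards a formative state, that of the epiblast shortly after implantation. Naive mESCs (2 libraries) grew without feeders on gelatin in N2B27 medium with PD035901, Chir99021 and hLIF. Epiblast-like cells (EpiLCs, 2 libraries) were made from mESCs with KSR, Activin A and bFgf2. Primed epiblast stem cells (EpiSCs, 2 libraries) grew on mitomycin-treated embryonic fibroblasts with KSR, Activin A, bFGF2 and the Wnt inhibitor XAV939. Epiblastoids were mESCs cultured in 3 dimensions in Matrigel with KSR, Activin A and bFgf2 and without XAV939, with 1 library each on days 2, 3 and 4. fPSCs are stabilized Epiblastoids kept in Matrigel (on it by the labels, embedded in it by the study's methods) with Activin A, bFgf2 and XAV939. They have 1 library at P1 and 7 long-term libraries (P10, P20, P30, CMT P11, 46C P24, BVSC P14 and ROSAmTmG P12). By the study's description, 46C carries a Sox1-GFP reporter, BVSC carries Blimp1 and Stella reporters, and ROSAmTmG was derived from ROSAmT/mG mice. A further 2 libraries are of fPSCs derived at P10 from E5.5 and E6.5 mouse epiblasts. Each fPSC line and passage is 1 library, and no label says that the 2 libraries of a group came from separate cultures. The p-values therefore measure only the spread between libraries within the groups of the fit. The 7 long-term fPSC libraries, of different lines and passages, add to that spread in every comparison.

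Definitive endoderm, the source of gut, liver and pancreas, leaves the anterior primitive streak of the gastrulating epiblast where Nodal signalling is high. Visceral and parietal endoderm, which line the yolk sac, come instead from the primitive endoderm of the blastocyst. Several endoderm factors serve both lineages, Sox17, Gata4, Gata6, Foxa2 and Hhex among them. Activin A, which acts through the Nodal receptors, is in the medium of every culture here other than mESCs.

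Values are FPKM, the fragments of a transcript divided by its length and by the size of the library, so levels can be set side by side between genes. A library summed to 307394 FPKM at the lowest and 414727 at the highest, with 10034 to 10933 genes at 1 FPKM or above. Sequencing depth cannot be read from FPKM and is unknown here. Pou5f1, the core pluripotency factor, was at 226 FPKM or more in every library. In bulk samples, fewer cells that transcribe a gene and less RNA per cell cannot be told apart. Markers of fibroblasts stood apart in EpiSCs, which grew on them: 16 fibroblast genes summed to between 688 and 811 FPKM there, against 3.79 to 7.04 in mESCs and 14.3 to 19.5 in EpiLCs.

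Among the 3 reference cell types, Foxa1 and Foxa2 were above 4 FPKM in EpiSCs and near 0 in mESCs and EpiLCs. The genes were chosen with earlier results of these data known, so their p-values below may not be independent of that choice. Cxcr4 was also highest in EpiSCs, Hhex was highest in mESCs, and the other 4 genes stayed below 1.5 FPKM. Foxa2, a forkhead pioneer factor that opens chromatin at endoderm enhancers, had 12.1 and 9.33 FPKM in the 2 EpiSC libraries. In mESCs it was listed at 0 and at 0.0404 FPKM, and in EpiLCs at 0.230 and 0.0915 FPKM. Foxa1, the related forkhead factor that shares many of its target sites, had 8.02 and 4.82 FPKM in EpiSCs and at most 0.121 FPKM in the mESC and EpiLC libraries. The EpiSC libraries therefore did not overlap with the other 4 for either gene. The share of all genes that separate in this way was not counted, here or for the genes below. In limma on log2(FPKM + 1), Foxa2 was higher in EpiSCs than in mESCs by 3.51, with a standard error of 0.90 and a limma adjusted p of 0.00623. Foxa1 was higher by 2.77, with a standard error of 0.62 and a limma adjusted p of 0.00276. These log2 differences understate the change of genes that start near 0. Against EpiLCs the log2 difference was 3.33 for Foxa2 (limma adjusted p = 0.0119) and 2.77 for Foxa1 (limma adjusted p = 0.00415).

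The threshold was a Benjamini-Hochberg adjusted p under 0.05 over the 12513 genes tested and a fold change of at least 1.5. It was passed by 2 of 7 tested members in EpiSCs against mESCs, both higher, beside 47.8% of all genes called, 23.1% higher and 24.7% lower. In EpiSCs against EpiLCs it was again 2 of 7, both higher, beside 35.9% of all genes called and 20.4% higher. In both comparisons the share of members called higher lies close to that of all genes called higher. The share called in either direction lies below that of all genes. Foxa2 against EpiLCs did not pass without EpiSCs replicate 1 (limma adjusted p = 0.0651), EpiSCs replicate 2 (0.0528) or EpiLCs replicate 2 (0.0654), and Foxa1 passed in each of these. The share of Foxa1 and Foxa2 transcripts that came from fibroblasts in the EpiSC libraries was not tested.

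Hhex, a homeobox transcriptional repressor expressed in anterior and hepatic endoderm, had the opposite order. It was at 5.33 and 3.78 FPKM in mESCs, at 1.70 and 1.73 FPKM in EpiLCs, and at 1.03 and 1.84 FPKM in EpiSCs. The mESC libraries did not overlap with the others, yet the log2 difference of -1.20 in EpiSCs against mESCs did not pass the threshold (limma adjusted p = 0.364), nor did -1.02 in EpiLCs (limma adjusted p = 0.514). In the same fit the 7 fPSC libraries, which vary widely for Hhex, enter the estimate of the spread. With only the 2 groups compared in the fit, Hhex passed in EpiSCs against mESCs (limma adjusted p = 0.00725) and in EpiLCs against mESCs (0.0210).

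Cxcr4, the chemokine receptor on migrating definitive endoderm and mesoderm, had 8.81 and 3.82 FPKM in EpiSCs, 1.21 and 1.44 FPKM in mESCs, and 0.522 and 0.120 FPKM in EpiLCs. The 3 groups of 2 libraries each did not overlap, and the order was EpiSCs, mESCs, EpiLCs. Cxcr4 did not pass in EpiSCs against mESCs (log2 difference 1.57, limma adjusted p = 0.186) or against EpiLCs (2.40, limma adjusted p = 0.0642). With only the 2 groups compared in the fit, Cxcr4 passed in EpiSCs against mESCs (limma adjusted p = 0.00817), in EpiSCs against EpiLCs (0.00161) and, lower, in EpiLCs against mESCs (0.0290). Cxcl12, the ligand of Cxcr4, was at 10.6 FPKM on average in EpiLCs and at 0.0869 FPKM in mESCs, a log2 difference of 3.42 (limma adjusted p = 5.28e-05).

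Gata4, Gata6 and Sox17 were low in all 6 reference libraries. Sox17, the HMG-box factor that endoderm of both origins needs, ranged from 0.0978 to 0.452 FPKM. Gata6, the zinc finger factor at the head of primitive endoderm, ranged from 0.0339 to 0.615 FPKM. Gata4, its relative in endoderm and heart, reached 1.48 FPKM in mESCs replicate 1 and at most 0.330 FPKM in the other 5. None of the 3 passed in any comparison of the 3 cell types. Sox7, a relative of Sox17 known from parietal endoderm and endothelium, was at 0.414 and 0.536 FPKM in EpiSCs and below 0.13 FPKM in the other 4 libraries, and it fell below the limit for testing. In EpiLCs against mESCs, limma called 0 of 7 members, with 0 at an unadjusted p under 0.05, beside 29.6% of all genes. The long-term fPSC libraries, which vary widely for the tested members, enter the spread of this fit. The members were picked for their levels in those lines, so a member that did not pass is not shown to be unchanged. With only the groups compared in the fit, Hhex and Cxcr4 passed in EpiLCs against mESCs.

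**Figure D1:**
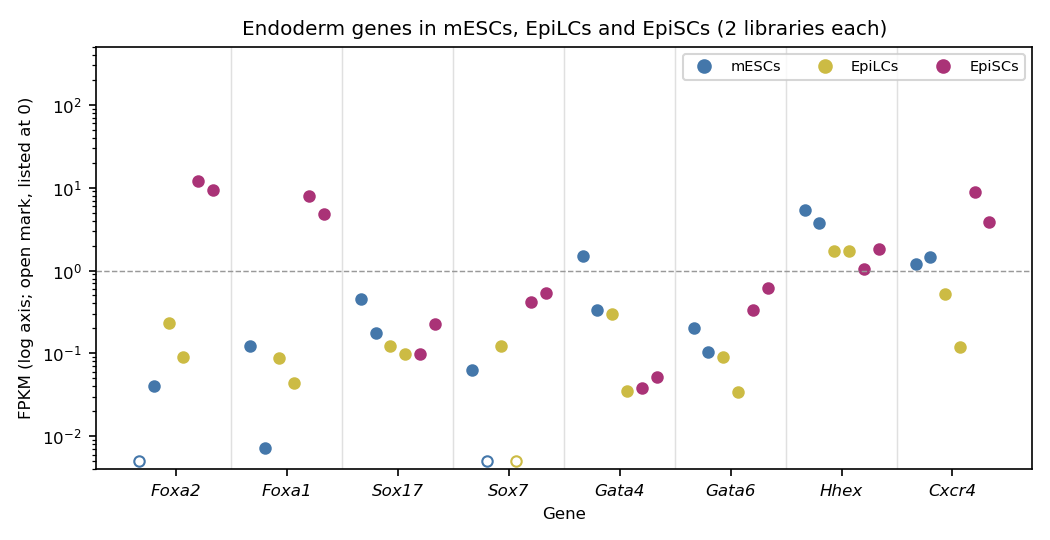
Level of the 8 endoderm genes (FPKM, log axis) in mESCs, EpiLCs and EpiSCs, with 1 point for each of the 2 libraries of a group, open marks for genes listed at 0 and a dashed line at 1 FPKM. Foxa2 and Foxa1 exceed 4 FPKM in both EpiSC libraries and stay below 0.25 FPKM in mESCs and EpiLCs, Hhex is highest in mESCs, and Cxcr4 falls into 3 separate levels.

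In Epiblastoids, 7 of the 8 genes were higher on day 4 than on day 3, and 6 of these were below 1 FPKM on day 3. On day 2 the sum of the 8 genes was 2.75 FPKM and on day 3 it was 2.72 FPKM, about the level in EpiLCs (3.17 and 2.15 FPKM). On day 4 it was 426 FPKM, of which Cxcr4 alone made 54.3%. With 1 library a day there is no replicate check, so the ratios below compare those libraries.

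Cxcr4 had 0.563, 0.624 and 231 FPKM on days 2, 3 and 4. Its log2 ratio of FPKM + 1 between days 4 and 3, 7.16, ranked 2 among the 11357 genes at 1 FPKM or more on either day. Sox17 went from 0.105 and 0.145 to 68.7 FPKM (log2 ratio 5.93, rank 11). Both genes sat below 1 FPKM until day 3 and were among the highest levels of the 8 on day 4. Gata6 went from 0.0255 and 0.0845 to 38.4 FPKM (5.18, rank 16), and Gata4 from 0.378 and 0.0244 to 11 FPKM (3.55, rank 50). Gata6 was thus the higher of the 2 GATA factors on day 4.

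Foxa2 had the highest log2 ratio of the 8 between days 3 and 2 (0.50), at 0.0982 and 0.558 FPKM, and reached 52.8 FPKM on day 4 (5.11, rank 18). Foxa1 lagged behind it, with 0.165, 0.133 and 3.42 FPKM (1.96, rank 239). The forkhead pair therefore stood far apart on day 4, and closer in EpiSCs. Hhex, which was never below 1 FPKM in the Epiblastoids, went from 1.38 and 1.10 to 20.6 FPKM (3.36, rank 65). Sox7 stayed at 0.0385, 0.0467 and 0.0237 FPKM.

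Of the genes compared between days 4 and 3, 7.85% were higher by at least 1 on the log2 scale and 8.22% were lower, and the rule that chose the members used this difference. The median ratio of all genes was -0.14. With upper-quartile scaling the median of all genes was 0.00, and the split of 891 higher and 934 lower genes became 1058 and 683. The ratios of the 7 members then lay between 2.03 (Foxa1) and 7.27 (Cxcr4). Between days 3 and 2, Hhex was the only member at 1 FPKM or more (log2 ratio -0.18), and 3.11% of genes were higher and 2.47% lower by at least 1. Upper-quartile scaling moved that split from 345 higher and 274 lower genes to 205 and 475.

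**Figure D2:**
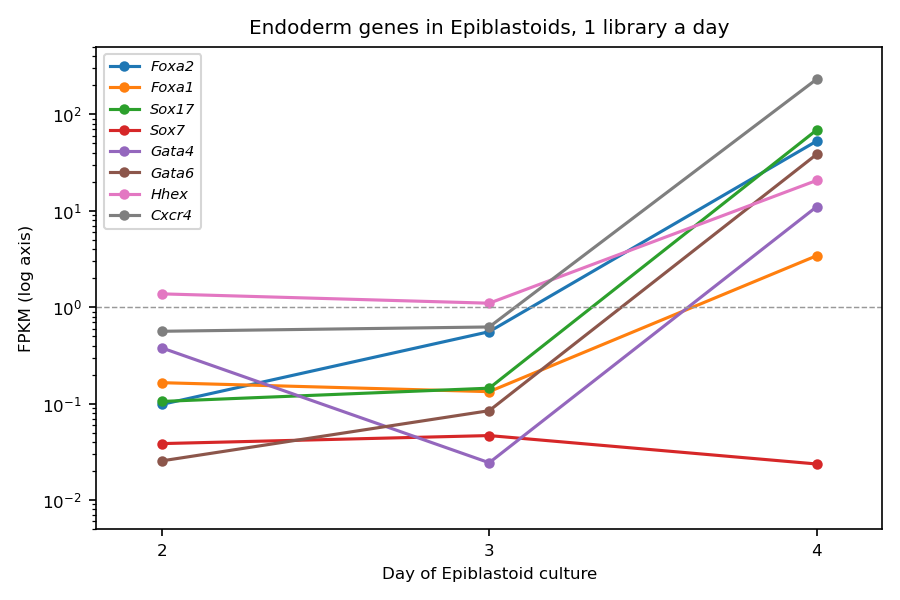
Level of the 8 endoderm genes (FPKM, log axis) in Epiblastoids on days 2, 3 and 4, with 1 point for the single library of each day and a dashed line at 1 FPKM. The lines of 7 genes climb steeply after day 3, to between 3.42 and 231 FPKM, and the line of Sox7 stays below 0.05 FPKM.

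Other gene groups were read in the same libraries, to place the 8 genes. Of 11 compared genes of definitive endoderm and anterior mesendoderm, 11 were higher by at least 1 on day 4 (median log2 ratio 2.76). Cer1, a secreted Nodal and BMP inhibitor, was listed at 0 on day 3 and had 295 FPKM on day 4. Lhx1 went from 0.0143 to 121 FPKM, Gsc from 0.288 to 96.1 FPKM and Mixl1 from 1.65 to 254 FPKM. Of 11 genes of the primitive streak and early mesoderm, 11 were also higher (median 2.76), among them Mesp1 (0 to 74.7 FPKM) and Kdr (0.0256 to 36.0 FPKM). The day 4 library thus held streak and mesoderm transcripts beside those of endoderm, and Cxcr4, Gata4 and Gata6 are genes of both.

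The lists of extraembryonic endoderm were mixed. Of 9 visceral endoderm genes 4 were higher and 2 lower (median 0.44). The 4 higher genes were Pdgfra (0.00888 to 20.1 FPKM), Bmp2 (0.0216 to 7.17), Rbp4 (0.663 to 3.41) and Hnf4a (listed at 0, then 1.76), and Rhox5 went from 66.3 to 2.89 FPKM. Afp, Ttr and Apoa2, secreted products that define visceral endoderm, were at most 0.0228 FPKM on day 3 and listed at 0 on day 4. Bmp2, Rbp4, Hnf4a, Afp, Ttr and Apoa2 were chosen after their values were seen. Of 8 parietal endoderm genes 5 were higher (median 1.16). For the Nodal and Activin pathway 6 of 17 were higher and 2 lower (median 0.06), and the feedback inhibitors Lefty2 (7.23 to 147 FPKM) and Lefty1 (25 to 162 FPKM) led the list. Heart genes gave 1 of 3 higher (Myl7, 0.626 to 123 FPKM), endothelium and blood 1 higher and 1 lower of 3, and fibroblasts 3 of 7 higher. Of 4 relatives and partners of the members, 2 were higher and 2 lower, with Zfpm1, a cofactor of GATA factors, from 2.24 to 32.6 FPKM. Among pluripotency genes 0 of 6 were higher and 3 were lower, with Sox2 from 16.4 to 2.73 FPKM.

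In long-term fPSCs, Foxa2 was the member with the highest level in all 7 libraries and in both epiblast-derived libraries, at between 34.7% and 76.7% of the sum of the 8 genes. It had 44.3 FPKM at P10, 20.0 at P20 and 5.24 at P30, 31.9 in CMT P11, 81.9 in 46C P24, 30.8 in BVSC P14 and 9.43 in ROSAmTmG P12. Of the 8 genes, only Foxa2 was over 3 FPKM in all 7. Cxcr4, Hhex and Sox17 reached 3 FPKM in 5 of 7 libraries each, Gata6 in 2, and Gata4 and Foxa1 in 1. Sox7 stayed at or below 0.164 FPKM.

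The library of 46C P24 was the highest of the 7 for every member but Sox7, and the sum of the 8 genes was 236 FPKM there against 10.7 to 66.1 FPKM in the other 6. Among all 11433 genes at 1 FPKM or more in a long-term library, 28.3% had their highest level in 46C. Sox17 had 50.6 FPKM in 46C, 13.1 in CMT P11 and a lowest value of 0.265 at P30. Gata6 had 21.8 FPKM in 46C, 3.03 in CMT P11 and a lowest value of 0.328 in ROSAmTmG P12. For both genes 46C stood clear of the next library by more than 3-fold.

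Hhex had 38.2 FPKM in 46C, 4.85 in CMT P11 and a lowest value of 0.545 in ROSAmTmG P12. Cxcr4 had 28.5 FPKM in 46C, 8.75 at P20 and a lowest value of 0.727 in ROSAmTmG P12. Gata4 had 9.10 FPKM in 46C, 2.63 at P20 and a lowest value of 0.319 in BVSC P14. Foxa1 had 5.99 FPKM in 46C, 1.70 at P10 and a lowest value of 0.149 in ROSAmTmG P12. ROSAmTmG P12 had the lowest level for 5 of the 8 genes, and the ratio of the highest to the lowest library ran from 15.6 for Foxa2 to 191 for Sox17.

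Against the median of the 6 other libraries, the 7 members were higher in 46C by between 1.65 (Foxa2) and 3.51 (Sox17) on the log2 scale. Of all genes 4.78% were higher and 1.35% lower by at least 1. The SD of the 7 libraries on the log2 scale lay between the 97.6 and the 99.9 percentile of all genes for these 7 members. 46C P24, CMT P11, BVSC P14 and ROSAmTmG P12 share a library protocol that differs in the labels from that of P10, P20 and P30. CMT P11, under the same protocol as 46C but cryopreserved by the study's description, had 62.3 FPKM for the sum of the 8 genes. Line, culture and library are otherwise 1 and the same here and cannot be told apart.

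Genes of definitive endoderm were high together with the members in 46C, and those of visceral and parietal endoderm in part. Of 11 compared genes of definitive endoderm and anterior mesendoderm, 10 were highest in 46C and 9 were higher than the median of the other 6 by at least 1, with a list sum of 1229 FPKM against 53.2 to 345. Cer1 had 203 FPKM against a median of 13.2, Lhx1 86.5 against 6.32, Dkk1 28.9 against 1.54 and Gsc 56.5 against 4.37. Of 10 visceral endoderm genes 8 were highest in 46C and 6 higher by at least 1, with a list sum of 121 FPKM against 30.2 to 48.9. Apoa1 had 16.9 FPKM against 1.05 and Rbp4 14.6 against 1.42, while Afp and Apoa2 were listed at 0 in 46C and Ttr had 0.898 FPKM, its highest of the 19 libraries. Of 7 parietal endoderm genes 6 were highest in 46C and 4 higher by at least 1 (median 1.12), with Pth1r at 11.7 FPKM against 0.705. Of 5 streak and mesoderm genes 0 were higher by at least 1, and of 5 pluripotency genes 0. Lefty1 was the only 1 of 17 Nodal pathway genes higher by at least 1 (414 FPKM against 61.4). The part that a share of differentiated cells had in the 46C values was not tested.

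Passage and origin gave a further order. fPSCs at P1 had 2.55 FPKM for the sum of the 8 genes, like EpiLCs, and lay below all 4 long-term CMT libraries (P10, P20, P30 and CMT P11) for 7 of 8 members, beside 27% of all genes. The study's description, and not the labels, gives CMT as the line of P10, P20 and P30. It also gives CMT P11 as cryopreserved. P30 was the lowest of these 4 for the same 7 members, beside 33.6% of all genes. Foxa2 at P1 had 0.0288 FPKM, and Hhex and Cxcr4 were at 1.17 and 0.976 FPKM.

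Both epiblast-derived libraries were above the median of the 7 long-term libraries for 7 of 8 members, beside 25.6% of all genes. The E5.5 and E6.5 libraries had 68.0 and 58.8 FPKM of Foxa2, 26.5 and 28.5 of Cxcr4, 15.5 and 10.6 of Hhex, and 12.7 and 11.6 of Sox17. Gata4 had 5.61 and 7.55 FPKM, Gata6 6.5 and 6.07, and Foxa1 4.02 and 4.00. The 2 libraries lay within 1.5-fold of each other for these 7 genes, and their sums (139 and 127 FPKM) were between those of 46C and of the other long-term libraries.

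**Figure D3:**
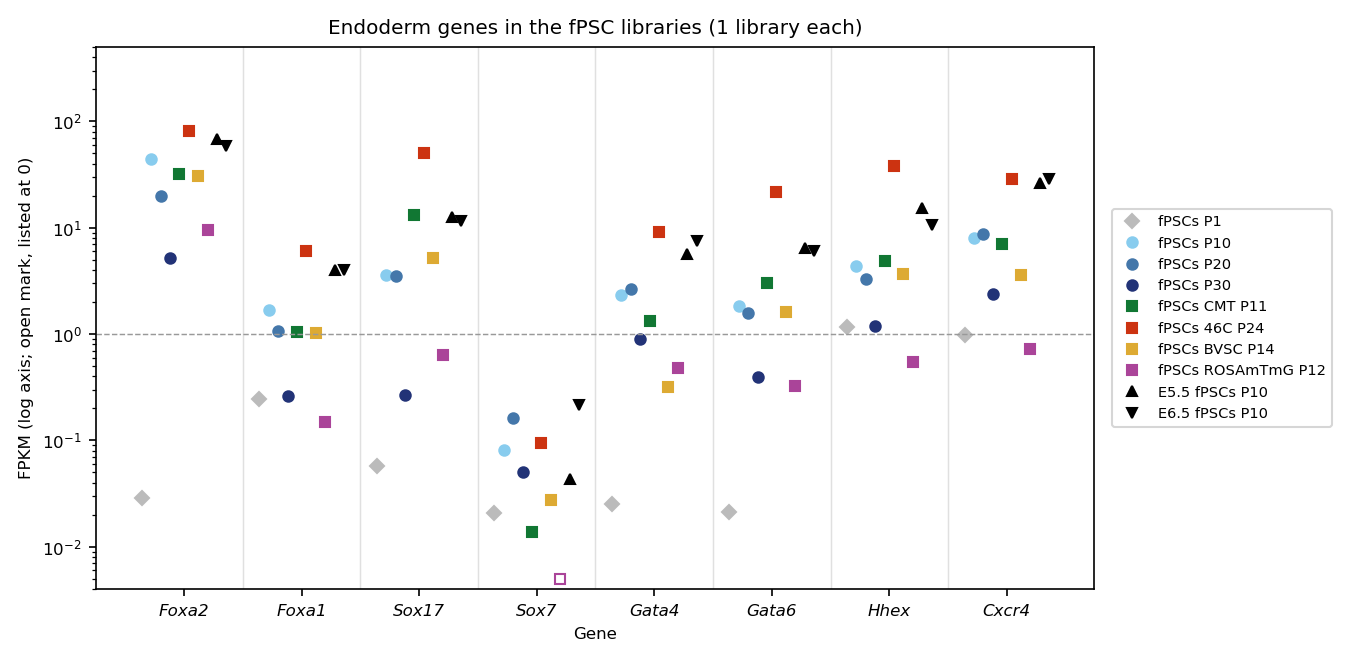
Level of the 8 endoderm genes (FPKM, log axis) in fPSCs at P1, the 7 long-term fPSC libraries and the 2 libraries of fPSCs from E5.5 and E6.5 epiblasts, with 1 point a library, open marks for genes listed at 0 and a dashed line at 1 FPKM. 46C P24 is the highest long-term library for 7 genes, P1 lies below 1.2 FPKM for all 8, and both epiblast-derived libraries (black triangles) sit just below 46C or level with it for Foxa2, Cxcr4 and Gata4.

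Genes of definitive endoderm other than the members were tested in the 7 long-term fPSC libraries. The list was chosen with earlier results of these data known. By the study's description 4 of the 7 libraries (P10, P20, P30 and CMT P11) are of 1 line, so the p-values do not measure the spread between lines. Against EpiLCs 4 of 10 were higher and 0 lower (median log2 difference 2.51), beside 13.8% of all genes called, 5.66% higher and 8.15% lower, and a median of 0.01 over all genes. Against EpiSCs 3 were higher and 1 lower (median 1.65), beside 32.3% of all genes called, 13.3% higher and 19% lower. Eomes, the T-box factor that starts the definitive endoderm programme, averaged 30.6 FPKM in fPSCs, 1.95 in EpiLCs and 4.59 in EpiSCs (log2 difference 3.37, limma adjusted p = 6.72e-06, and 2.46, 5.08e-05). Cer1, Gsc and Mixl1 passed against EpiLCs with limma adjusted p = 0.0332, 0.0471 and 0.0335. All 3 failed to pass without EpiLCs replicate 1 (limma adjusted p = 0.182, 0.212 and 0.141) and without EpiLCs replicate 2 (0.192, 0.238 and 0.239). Krt19 was lower in fPSCs than in EpiSCs (5.07 and 41.9 FPKM, limma adjusted p = 0.000419). Of 9 visceral endoderm genes 0 were higher in fPSCs against EpiLCs and 3 lower (median log2 difference 0.17), with Rhox5 at 0.485 FPKM on average against 256. Rhox5 also had 77.7 and 126 FPKM in the mESC libraries, where Afp was listed at 0, so its level alone does not report visceral endoderm here.

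Levels of the members followed each other across the 19 libraries to different degrees. Pearson's r of log2(FPKM + 1) is a description over 19 libraries that share the high values of day 4 and of 46C. Gata6 had an r of 0.976 with Sox17, 0.934 with Cxcr4, 0.914 with Gata4 and 0.906 with Hhex. Foxa2 had an r of 0.826 with Cxcr4, 0.824 with Sox17 and 0.648 with Hhex, and Foxa1 an r of 0.766 with Foxa2 and 0.537 with Gata4. Of the 7833 genes that reached 10 FPKM, those most like Gata6 were Dkk1 (0.991), Cfc1 (0.984) and Sox17. Those most like Sox17 were Lhx1 (0.986), Dkk1 (0.983) and Gata6, and those most like Gata4 were Gata6, Mixl1 (0.913) and Hhex. Frzb (0.948), Cfc1 (0.938) and Gata6 were most like Cxcr4, and Pga5 (0.926), Gata6 and Gata4 most like Hhex. No member was among the 3 most like Foxa2, namely Lzts1 (0.962), Cyp26a1 (0.946) and Gpm6b (0.944), or Foxa1, namely Vps37c (0.927), Hsd11b2 (0.926) and Fam210b (0.912).

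H3K4me3 is a histone mark of active and poised promoters, and H3K27me3 is the mark of Polycomb repression. In fPSCs at P10 both marks lay within the 10000 bp around the annotated starts of the members. The line of these cells is not given in the labels, the authors integrated replicates, and each mark was measured in its own libraries, so both marks on the same allele or in the same cell were not shown. Over the 10000 bp around the annotated gene start, all 8 members were in the top 10% of 22089 promoters for H3K27me3, beside 10% of promoters. Their mean H3K27me3 ran from 1.87 RPKM (reads per kilobase, scaled to the reads of a library) at Cxcr4 to 4.18 at Gata4, against a median of 0.379 RPKM over all promoters. With windows of 2000 bp, Cxcr4 and Foxa1 fell to the 84.3 and 88.8 percentiles.

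H3K4me3 over the same 10000 bp ran from 1.94 RPKM at Sox7 to 4.74 at Gata6, against a median of 1.13 RPKM. Gata6 (99.0 percentile), Foxa1 (97.4), Sox17 (97.1) and Foxa2 (96.2) were in the top 10% for both marks, beside 1.53% of promoters. Gata4 (81.5), Cxcr4 (86.5) and Hhex (76.8) were in the top 25% for both, which made 7 of 8 members beside 5.14% of promoters, and Sox7 was at the 74.0 percentile. The counts behind these values were 156 to 381 reads of H3K4me3 and 290 to 648 reads of H3K27me3 per promoter, which covers counting error only. Over 10000 bp Foxa2, at 44.3 FPKM in the P10 library, thus lay near the same H3K4me3 level as Foxa1 and Sox17, at 1.70 and 3.57 FPKM. Over 2000 bp the 3 stood apart, with H3K4me3 at 2.80 RPKM for Foxa2, 3.98 for Foxa1 and 6.78 for Sox17. With windows of 2000 bp only 3 members, Gata6, Sox17 and Cxcr4, were in the top 25% for both marks. The share of all promoters that are so at this window was not counted. There H3K4me3 was at the 63.9 percentile for Foxa1, 58.7 for Sox7, 51.6 for Foxa2, 49.1 for Gata4 and 44.9 for Hhex.

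DNA methylation at the annotated starts differed among the members, and the values depended on the window and on the start taken. Within 1000 bp of the annotated start the mean methylated fraction was 0.0025 at Foxa1, 0.0121 at Sox17, 0.0221 at Gata6, 0.0267 at Cxcr4 and 0.0693 at Foxa2. It was 0.277 at Sox7, 0.4 at Gata4 and 0.840 at Hhex. Within 500 bp it was 0.0167 at Sox7, 0.31 at Gata4 and 0.923 at Hhex. The first 5 were at or below a fraction of 0.2, as were 32.5% of promoters, and their neighbourhoods within 50 kb had mean fractions between 0.614 and 0.887 for all 8 members. The same 5 starts lay in stretches of low methylation of 2000 bp or more, beside 10.2% of starts. These measured 6000 bp at Gata6, 3500 bp at Foxa1, 3300 bp at Foxa2, 2600 bp at Cxcr4 and 2300 bp at Sox17, against a median of 600 bp over all starts. The Sox7 start lay in a stretch of 600 bp, and the annotated starts of Gata4 and Hhex lay in none. Coverage is not given for any window, so these fractions have no counting interval.

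Gata4 and Hhex have further start sites, looked at after these values were seen. For Gata4 the annotated start furthest upstream is at chr14:63890529 (mm9, minus strand), and a further transcript starts 26421 bp downstream. There the mean methylated fraction was 0, the low-methylation stretch ran for 6700 bp (chr14:63862401-63869100), longer than at 99.8% of starts, and H3K4me3 and H3K27me3 were at the 98.3 and 99.7 percentiles. For Hhex (chr19, plus strand) the RefSeq start lies 1954 bp downstream of the annotated 1, with a methylated fraction of 0.0183 and a stretch of 1800 bp. Other annotated starts differed: at Gata4 the fraction was 0.259 at a start 568 bp downstream and 0.952 at a start 58085 bp downstream, and at Hhex it was 0.184 at a start 3852 bp downstream.

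**Figure D4:**
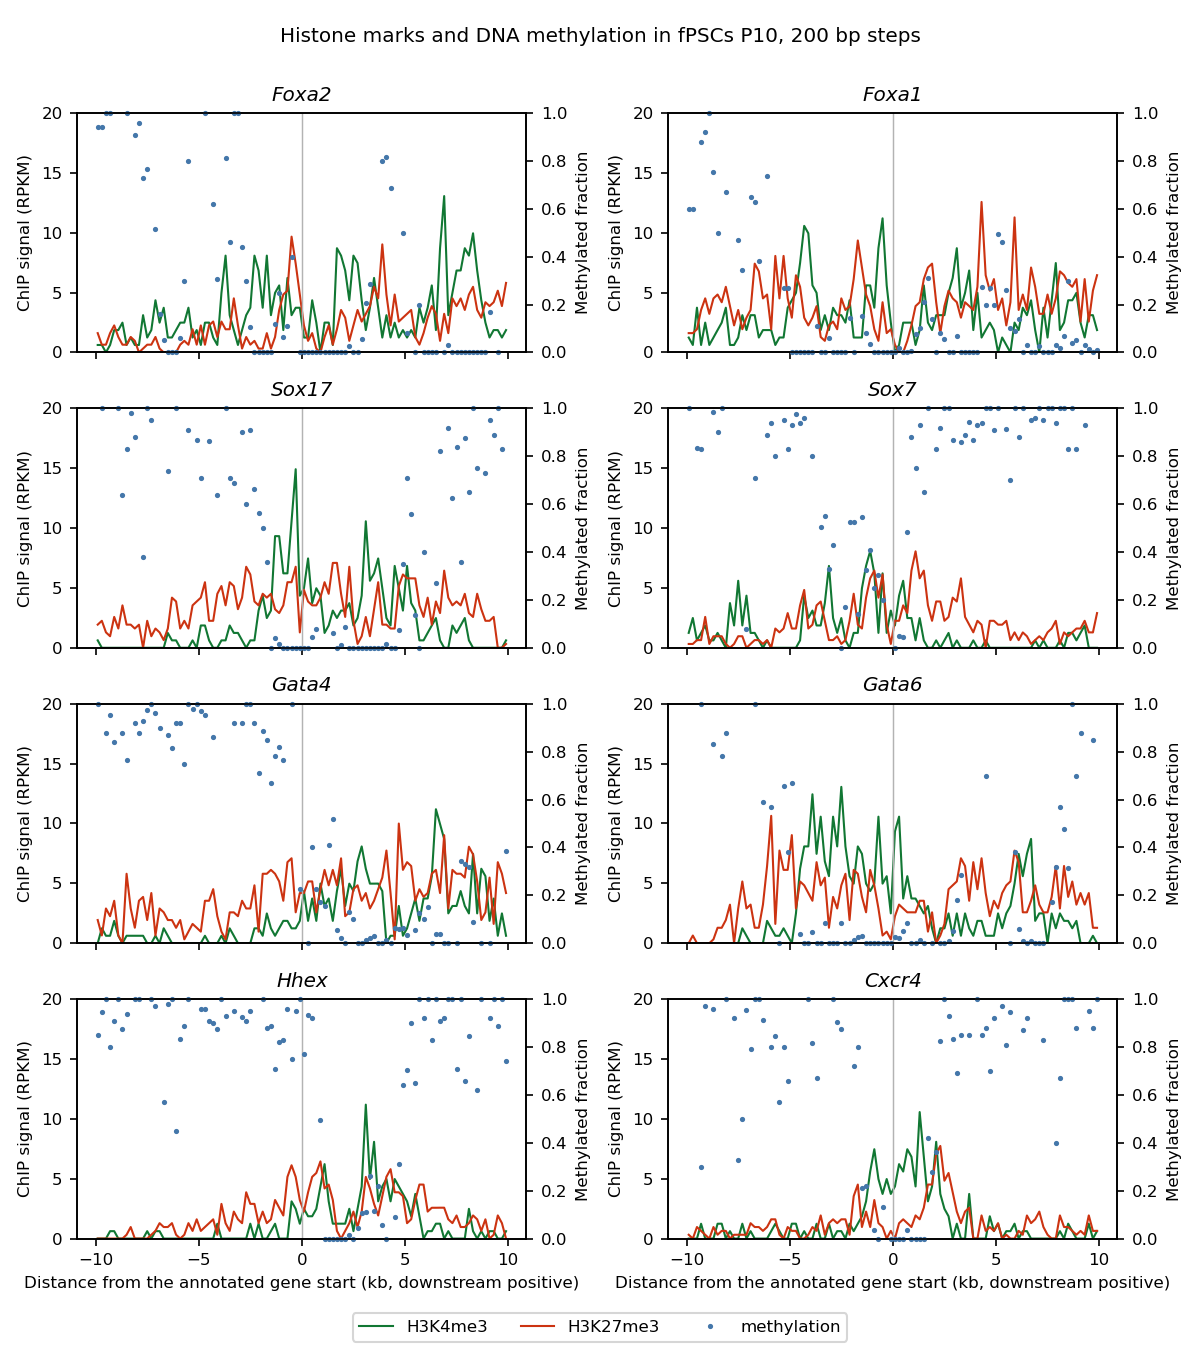
H3K4me3 and H3K27me3 (RPKM, left axes) and methylated fraction (points, right axes) in fPSCs P10 over 10 kb to each side of the annotated start of each gene. Foxa1, Gata6, Sox17, Cxcr4 and Foxa2 show a trough of methylation over the start with both marks around it, while the troughs of Gata4 and Hhex lie downstream of the start.

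Promoter sequences of 4 of the 8 members, Cxcr4, Foxa1, Foxa2 and Hhex, were matched in RefSeq (GRCm38.p6), most of it upstream of the transcript start. They are shown because they lie in the low-methylation stretches, at the edge of it for Foxa2. Each reads 5′ to 3′ on the gene's strand in lower case, with CG, the dinucleotide that carries DNA methylation in mammals, in capitals. The same letters stand at 1 place on their chromosome in mm9, where Cxcr4 lies at chr1:130488827-130489126 (minus strand), Foxa1 at chr12:58647049-58647348 (minus), Foxa2 at chr2:147872656-147872955 (minus) and Hhex at chr19:37509081-37509380 (plus).
Cxcr4: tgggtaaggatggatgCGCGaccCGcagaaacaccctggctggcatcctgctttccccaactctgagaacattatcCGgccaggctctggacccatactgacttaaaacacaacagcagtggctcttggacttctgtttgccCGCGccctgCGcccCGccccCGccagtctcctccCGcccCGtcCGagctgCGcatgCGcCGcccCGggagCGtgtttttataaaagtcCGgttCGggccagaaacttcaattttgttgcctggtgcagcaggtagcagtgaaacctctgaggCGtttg
Foxa1: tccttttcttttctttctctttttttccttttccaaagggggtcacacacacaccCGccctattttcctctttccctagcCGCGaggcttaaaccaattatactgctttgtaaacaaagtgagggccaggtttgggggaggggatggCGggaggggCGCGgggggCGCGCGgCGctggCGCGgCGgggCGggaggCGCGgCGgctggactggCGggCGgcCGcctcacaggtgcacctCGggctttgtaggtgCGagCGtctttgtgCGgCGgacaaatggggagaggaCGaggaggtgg
Foxa2: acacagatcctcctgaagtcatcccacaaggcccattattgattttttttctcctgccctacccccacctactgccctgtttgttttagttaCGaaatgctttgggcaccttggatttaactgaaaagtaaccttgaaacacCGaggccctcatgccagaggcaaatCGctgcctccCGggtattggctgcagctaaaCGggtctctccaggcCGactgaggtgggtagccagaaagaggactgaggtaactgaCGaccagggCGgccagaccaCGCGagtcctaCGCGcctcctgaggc
Hhex: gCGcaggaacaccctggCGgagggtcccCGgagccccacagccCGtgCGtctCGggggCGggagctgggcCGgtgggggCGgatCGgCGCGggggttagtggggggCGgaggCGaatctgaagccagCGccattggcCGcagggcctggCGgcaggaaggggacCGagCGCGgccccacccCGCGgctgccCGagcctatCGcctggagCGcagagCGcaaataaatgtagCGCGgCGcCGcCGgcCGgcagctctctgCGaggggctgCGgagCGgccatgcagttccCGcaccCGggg
Hhex held 37 CG in its 300 bases, Foxa1 26, Cxcr4 20 and Foxa2 12, against a median of 7 over 32851 promoters of the same length, of which 94.6% held at least 1. The Foxa2 sequence is that of the most upstream of its RefSeq promoters. The others, not shown, lie inside the stretch and held 23 and 13 CG. CG reads the same on both strands. Every methylation window with a value in these 4 sequences was at 0 (1 window for Cxcr4, 3 for Foxa2 and 4 each for Foxa1 and Hhex). Gata4, Gata6, Sox17 and Sox7 are the other members.

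Single fPSCs of 4 clones were sequenced one by one, and 181 of 182 cells had at least 500 detected genes. Of the members, both single-cell tables list Foxa2 and Gata4 and 1 lists Foxa1. Foxa2 had a count in 39 of 181 cells (21.5%, exact Clopper-Pearson 95% interval 15.8 to 28.3, which covers counting error only). It was found in 9 of 46 cells of clone 1, 7 of 45 of clone 2, 13 of 46 of clone 3 and 10 of 44 of clone 4. The intervals of the 4 clones overlap. Its counts were uneven: the median cell with Foxa2 had 3, the highest had 317, and the 3 highest cells held 636 of all 856 counts.

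Gata4 had a count in 5 of 181 cells (2.76%, 0.903 to 6.33), and 0 of these were among the 39 cells with Foxa2. Foxa1 was listed for clones 3 and 4 only, where 3 of 90 cells had a count (3.33%, 0.693 to 9.43) and 1 cell held 95 of its 97 counts. Of these 3 cells, 2 also had Foxa2. Eomes was found in 18 of 39 cells with Foxa2 (46.2%) and in 56 of 142 cells without it (39.4%). Otx2, a formative marker, was found in 31 of 39 (79.5%) and 90 of 142 (63.4%). Cells with Foxa2 had a median of 39586 counts and cells without it 21853.5, so detection of any gene differs between them. Pou5f1 had a count in 17 of 181 cells, and a missing count therefore does not show a missing transcript. Gata6, Sox17, Sox7, Cxcr4 and Hhex were not analysed here in single cells.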

How the data were processed

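Bulk RNA-seq of the 19 libraries was deposited by the authors as FPKM, after trimming with cutadapt 1.11, alignment with TopHat2 2.1.1 (mm9) and estimation with Cufflinks 2.1.1, per the study's methods and the submitters' processing notes. Of 23608 entries, 4 with repeated names were left out. FPKM are scaled for length and library, so no count test was run. Groups were compared with limma 3.58.1 (R 4.3.3, trend option) on log2(FPKM + 1), with the reference groups and the 7 long-term fPSC libraries fitted together, for 12513 genes that reached 1 FPKM in 2 libraries or more. Single libraries were compared as log2 ratios without a test.

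The authors deposited ChIP-seq as RPKM in 100 bp bins (Bowtie2 2.2.2, mm9). Bin values were whole multiples of 1 read (1.24 and 0.645 RPKM), for H3K4me3 and H3K27me3. Bisulfite sequencing was deposited by the authors as a methylated fraction per 100 bp window, made with bs_seeker2 on mm9, without coverage. A low-methylation stretch is a run of windows with a fraction of at most 0.2, allowing 3 missing windows in a row. Promoters are those of protein-coding genes at 1 position in the mm9 annotation. The authors deposited single-cell counts per gene, and the sources used here do not say whether they are reads or molecules. In 1 table a cell name is listed 2 times.

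The members and the 10 lists of other genes were chosen with earlier results of these data known. Named genes are the members, at most 4 genes of a list with the largest change at 10 FPKM or more, and the 3 genes most like each member. The limma step was tested on simulated data. Alternatives were a pseudocount of 0.1, no filter, upper-quartile scaling, only the groups compared, no trend, a replicate block, libraries left out, 1 library protocol, other windows, start sites and methylation limits, and other cell filters.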

Additional observations from a re-analysis of the deposited data

Results flagged for a closer look

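In 7 long-term fPSC libraries, 46C P24 lay past Dixon's 95% limit for 6 members and for the sum of the 8 genes. Since the genes were picked for their levels in these lines, this describes the gap to the next library and is no test. Its values were 9.10 FPKM for Gata4, 21.8 for Gata6, 50.6 for Sox17, 5.99 for Foxa1, 28.5 for Cxcr4 and 38.2 for Hhex, and 236 FPKM for the sum. It did not lie past the limit for Foxa2 (81.9 FPKM, next 44.3) or Sox7. The usual chance rate of about 1 in 20 does not apply to the 9 quantities looked at, given how the genes were picked, and the 9 share their libraries.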

How the results depend on the processing

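Foxa1 passed the limma threshold in EpiSCs against mESCs and against EpiLCs under every alternative run, and Foxa2 did so against mESCs. The number of members past the threshold in EpiLCs against mESCs went from 0 to 2 with only the 2 groups compared and to 1 (Hhex) with the replicate block, and in EpiSCs against mESCs from 2 to 4 with only the 2 groups, with the replicate block and with the crossed block. In EpiSCs against EpiLCs it ranged from 1 to 2 when a library was left out, and was 3 with the block. Leaving out a library leaves 1 sample in a reference group, which is then assumed to vary like the others. It gave 2291 to 3019 genes in EpiLCs against mESCs, 4013 to 4724 in EpiSCs against mESCs, 2425 to 3621 in EpiSCs against EpiLCs, 1523 to 4463 in fPSCs against EpiSCs and 865 to 1823 in fPSCs against EpiLCs (3706, 5980, 4488, 4041 and 1728 with all libraries). Fits that took fPSCs of 1 library protocol called 3178 (first) and 2648 genes (second) in fPSCs against EpiLCs. Same-numbered libraries shared only a number: their deviations from the group means correlated at 0.20 for mESCs and EpiLCs, -0.20 for mESCs and EpiSCs and -0.13 for EpiLCs and EpiSCs. With the replicate block, in a fit without fPSCs, 4107, 6685 and 5196 genes were called in EpiLCs against mESCs, EpiSCs against mESCs and EpiSCs against EpiLCs. With the EpiSC numbers crossed, added after seeing the data, 7059 and 5832 genes were called in the latter pair of comparisons. Directions turned only for differences near 0: with 1 library left out, Foxa1 in EpiLCs against mESCs ranged from -0.074 to 0.081, and in EpiSCs against EpiLCs Gata4 ranged from -0.31 to 0.014, Sox17 from -0.018 to 0.14 and Hhex from -0.42 to 0.064. A pseudocount of 0.1 made 1 member (Foxa2, 1.73) higher by at least 1 on day 3 than on day 2 of Epiblastoids and Gata4 lower (-1.94), both below 1 FPKM on both days, and a promoter window of 1000 bp to each side left 3 members in the top 25% for both marks. The cause of these changes was not tested. Of 736 values for single genes, 659 kept their direction and side of the threshold or moved by less than the spread. FPKM depth and methylation coverage are unknown, and Epiblastoid days and fPSC lines have 1 library each, and each track joins its replicates.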

Other observations

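In EpiSCs against mESCs 5 of 7 genes of the primitive streak and early mesoderm were higher and 0 lower (median log2 difference 2.35), beside 23.1% of all genes higher and 24.7% lower, with Hand1 at 44.7 FPKM on average against 0.0882, T at 36.3 against 1.20 and Fgf8 at 17.6 against 0.165. Of 11 parietal endoderm genes 7 were higher and 2 lower (median 2.02), led by the basement membrane collagens Col4a1 (113 against 0.789 FPKM) and Col4a2 (97.1 against 0.698 FPKM), which fibroblasts also make. All 14 tested fibroblast genes were higher in EpiSCs (median 2.88), with Col1a1 at 132 against 0.170.

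In EpiLCs against mESCs 3 of 10 definitive endoderm genes were lower and 0 higher (median -0.28), a share close to the 29.6% of all genes called. Nid1 and Lama1, components of the basement membrane that parietal endoderm secretes, were lower in EpiLCs (1.02 against 60.6 FPKM and 0.425 against 20.9 FPKM). In long-term fPSCs against EpiLCs, 4 of 7 streak genes were higher and 1 lower (all genes 5.66% and 8.15%), with Fgf8 at 73.3 FPKM on average against 2.07 and T at 18.3 against 0.212, while 0 of 11 parietal endoderm genes passed the limma threshold in either direction.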
